A study of Mus musculus with 29 samples.

Results

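The data on 10 genes of bone morphogenetic protein (BMP) signalling and the dorsal midline of the embryonic mouse brain are described here, chosen by name and function with earlier results of these data known. They comprise 4 ligands (Bmp4, Bmp6, Bmp7 and Gdf7), the membrane inhibitor Bambi, 4 transcriptional regulators that respond to BMP (Msx1, Msx2, Id1 and Id3) and Ttr, the transthyretin gene of the choroid plexus. All 10 were among the 25239 genes listed in the files, and all 10 were among the 15383 genes with enough counts to be tested. Polyadenylated RNA was sequenced from dissected brain tissue of mouse embryos at E11.5, the mid-gestation stage the labels give. In all, 4 groups of 2 libraries each were available: wild-type midbrain, midbrain with an hs654 knockout, wild-type forebrain, and forebrain with an hs267-853 knockout. hs654 and hs267-853 are names of deleted enhancers, left as labelled, since the sources used here do not say whether hs267-853 is 1 element or a pair. Each library pooled tissue from several embryos of 1 genotype, and the labels do not say how many embryos or litters entered a pool, so the p-values measure only the spread between these pools.

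BMP ligands are secreted proteins that bind type I and type II receptor kinases, which phosphorylate Smad transcription factors. In the developing brain they are made by the roof plate and the neighbouring surface ectoderm, and they pattern the dorsal neural tube. In the telencephalon the dorsal midline becomes the cortical hem and the choroid plexus, the epithelium that makes cerebrospinal fluid. Msx1, Msx2, Id1 and Id3 are textbook transcriptional targets of the pathway.

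The library labels matched the regional marker genes. En2, a midbrain and anterior hindbrain gene, had 0 counts in all 4 forebrain libraries and between 130 and 158 CPM (counts of the gene per 1000000 counts) in the 4 midbrain libraries. All 8 forebrain markers on the list were higher in wild-type forebrain and all 7 midbrain markers were lower. The libraries held 9051632 to 18024406 counts assigned to genes. In all values below, CPM were scaled to library sizes corrected with TMM factors, and folds and p-values came from edgeR's quasi-likelihood test, the p-values adjusted by the Benjamini-Hochberg method over the 15383 tested genes. Levels were compared between libraries and not between genes, because transcript lengths were not used here. In bulk tissue, fewer cells of a type and less RNA per cell cannot be told apart.

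The sequences just before the start of transcription are shown for the 4 members whose tissue differences were largest among those with a RefSeq promoter entry, so that the motifs known for the pathway can be read against the values. The RefSeq table (GRCm38.p6) held an entry for 6 of the 10 members, namely Bmp4, Bmp6, Gdf7, Msx1, Msx2 and Id3. Each window below is the 250 bases before the annotated start, 5′ to 3′ on the strand of the gene, at chr14:46390670-46390919 (minus strand) for Bmp4, chr12:8301955-8302204 (minus strand) for Gdf7, chr5:37824586-37824835 (minus strand) for Msx1 and chr13:53472781-53473030 (minus strand) for Msx2. Capitals mark each CANNTG, the E-box bound by the helix-loop-helix factors that Id proteins sequester, and each TAATTA, the core bound by homeodomain proteins such as those encoded by Msx1 and Msx2.
Bmp4: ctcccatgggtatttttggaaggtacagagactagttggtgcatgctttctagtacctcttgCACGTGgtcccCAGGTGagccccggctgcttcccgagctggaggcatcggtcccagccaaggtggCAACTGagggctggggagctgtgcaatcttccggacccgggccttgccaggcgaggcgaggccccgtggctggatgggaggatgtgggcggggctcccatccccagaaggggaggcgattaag
Gdf7: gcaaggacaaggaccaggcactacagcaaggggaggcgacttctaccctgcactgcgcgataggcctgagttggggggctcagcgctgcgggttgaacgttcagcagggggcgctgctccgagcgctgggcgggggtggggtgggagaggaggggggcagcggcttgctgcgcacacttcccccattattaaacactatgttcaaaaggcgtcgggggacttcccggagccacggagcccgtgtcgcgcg
Msx1: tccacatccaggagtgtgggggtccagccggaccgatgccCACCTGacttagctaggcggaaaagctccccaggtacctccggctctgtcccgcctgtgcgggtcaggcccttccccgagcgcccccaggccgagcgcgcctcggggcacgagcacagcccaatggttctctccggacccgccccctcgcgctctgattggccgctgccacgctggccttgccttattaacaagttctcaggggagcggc
Msx2: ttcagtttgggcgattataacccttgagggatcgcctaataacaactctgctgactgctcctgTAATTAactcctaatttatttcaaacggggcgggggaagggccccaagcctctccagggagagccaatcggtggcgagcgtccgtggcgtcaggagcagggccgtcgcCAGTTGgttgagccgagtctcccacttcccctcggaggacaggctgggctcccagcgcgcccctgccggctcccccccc

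Each motif was searched on both strands, and no match overlapped another in these windows. A CANNTG stood in 4 of the 6 windows, Bmp4, Bmp6, Msx1 and Msx2, against 66.2% of 32851 promoters in the same table. TAATTA stood in 1 of the 6, Msx2, from 187 to 182 bases before the start, against 4.84% of promoters. GGCGCC, a GC-rich site bound by BMP Smads, stood in 0 of the 6 windows against 9.59% of promoters, and TATAAA in 0 of the 6 against 12.4%. The Bmp4 window held 11 CpG, the Gdf7 and Msx1 windows 20 each and the Msx2 window 16, against a median of 6 over all promoters. In the same build, Bmp6 lies at chr13:38345716-38500314, Bmp7 at chr2:172868012-172940321, Id1 at chr2:152736251-152737410 and Id3 at chr4:136143822-136145392. Binding to these letters was not measured in the libraries used here.

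Across the tissues, 7 of the 10 members differed between wild-type forebrain and wild-type midbrain, 5 higher and 2 lower in the forebrain. The background was 29.6% of tested genes called in this comparison, 14.3% higher and 15.3% lower in forebrain. Bmp4, Msx1, Msx2, Bambi and Ttr were higher, Gdf7 and Id3 were lower, and Bmp6, Bmp7 and Id1 did not pass the test. The median log2 fold change of the 10 members was 0.36, beside 0.0012 over all tested genes. In the knockout libraries, which share no sample with the wild-type ones, 6 of the 10 passed, 5 higher and 1 lower, against 29.4% of genes called, 14.6% higher and 14.8% lower. Their median there was 0.56, beside 0.017 over all tested genes.

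**Figure D1:**
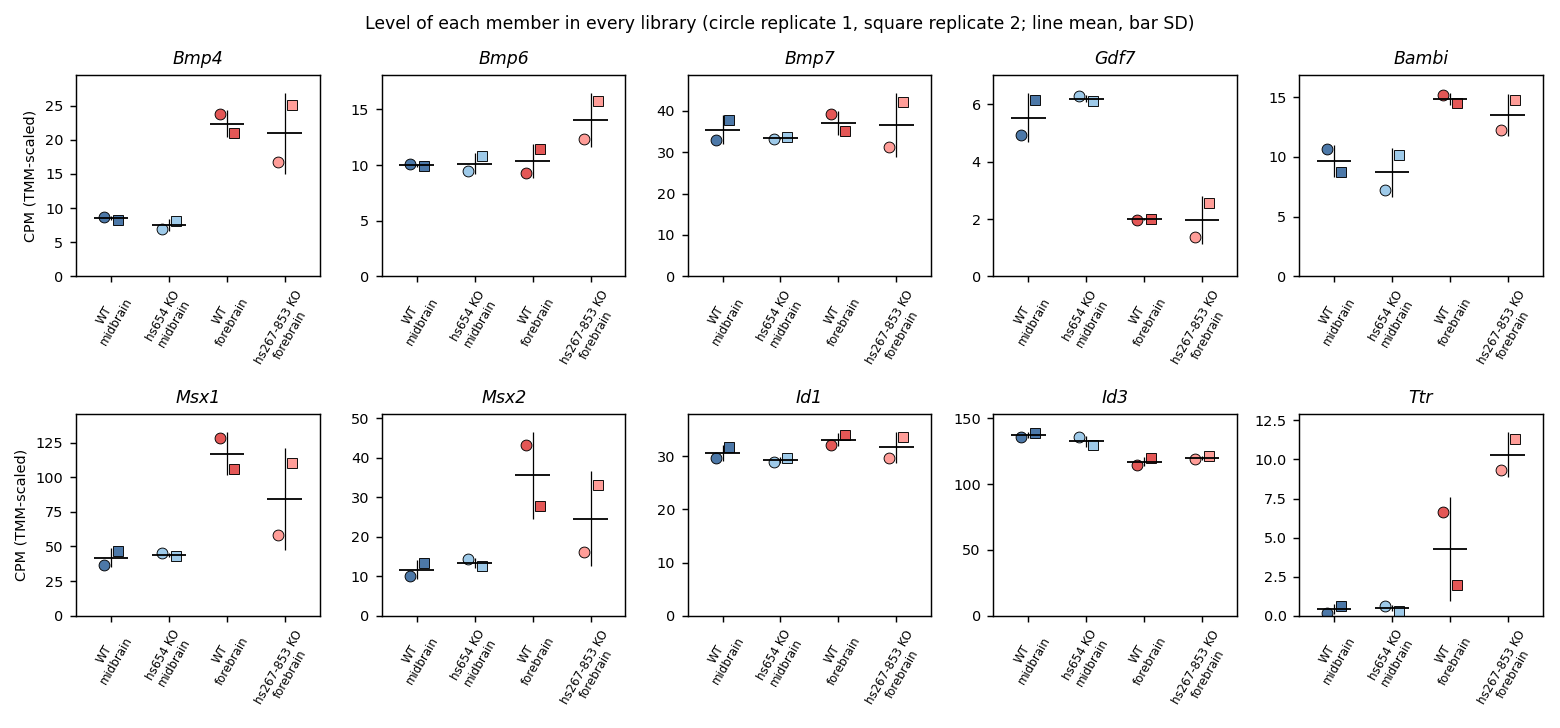
Level of each of the 10 genes in CPM (linear axes starting at 0) in the 8 libraries, grouped by tissue and genotype; circles are replicate 1, squares replicate 2, lines the group mean and bars the SD (n = 2). Bmp4, Bambi, Msx1, Msx2 and Ttr lie higher in every forebrain library than in every midbrain library, and Gdf7 and Id3 lie lower.

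Among the ligands, Bmp4, expressed in the dorsal midline and surface ectoderm, stood at 8.73 and 8.31 CPM in wild-type midbrain and at 23.8 and 21.0 CPM in wild-type forebrain. It stood at 6.88 and 8.08 CPM in hs654 knockout midbrain and at 16.8 and 25.1 CPM in hs267-853 knockout forebrain. All 4 forebrain libraries lay above all 4 midbrain libraries. The difference was a log2 fold change of 1.39 ± 0.19 (SE, n = 2 against 2, adjusted p = 0.000129, edgeR's quasi-likelihood test) in wild type. In the knockouts it was 1.49 ± 0.201 (adjusted p = 0.000112, edgeR's quasi-likelihood test).

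Gdf7, a ligand made by roof plate cells, ran the other way. It stood at 4.93 and 6.15 CPM in wild-type midbrain, 6.28 and 6.12 CPM in hs654 knockout midbrain, 1.97 and 2.01 CPM in wild-type forebrain, and 1.36 and 2.55 CPM in hs267-853 knockout forebrain. Every midbrain library was above every forebrain library. The log2 fold change, forebrain over midbrain, was -1.47 ± 0.316 (SE, adjusted p = 0.00363, edgeR's quasi-likelihood test) in wild type and -1.68 ± 0.315 (adjusted p = 0.00138, edgeR's quasi-likelihood test) in the knockouts. Gdf7 shares 2894 bases with the gene Ldah in RefSeq, and whether the counting used strand is not given in the sources used here, so its counts are uncertain to that extent.

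Bmp6, a ligand of the roof plate and many epithelia, stood at 10.1 and 9.90 CPM in wild-type midbrain and at 9.30 and 11.45 CPM in wild-type forebrain. It had 9.46 and 10.8 CPM in hs654 knockout midbrain and 12.4 and 15.8 CPM in hs267-853 knockout forebrain. The wild-type groups overlapped, with a log2 difference of 0.052 and a 95% interval of -0.34 to 0.44 (edgeR's quasi-likelihood test). In the knockouts the forebrain libraries were both above the midbrain ones, with a log2 fold change of 0.47 ± 0.179 that missed the threshold (adjusted p = 0.0637, edgeR's quasi-likelihood test). It passed with no filter on low counts (adjusted p = 0.0486, edgeR's quasi-likelihood test). Without hs267-853 knockout forebrain replicate 1, which leaves a lone library in that group, the log2 fold change was 0.65. Without replicate 2 it was 0.29. The knockout difference of Bmp6 missed the threshold in 14 of 16 alternatives.

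Bmp7, a ligand that forms heterodimers with other BMPs, did not pass in either tissue comparison. It stood at 32.9 and 37.9 CPM in wild-type midbrain, 33.2 and 33.5 CPM in hs654 knockout midbrain, 39.1 and 35.1 CPM in wild-type forebrain, and 31.2 and 42.0 CPM in hs267-853 knockout forebrain. The groups overlapped, and the 95% intervals of the tissue difference were -0.22 to 0.36 in wild type and -0.17 to 0.43 in the knockouts, on the log2 scale (edgeR's quasi-likelihood test).

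Bambi encodes a membrane protein that resembles a type I receptor without a kinase and dampens BMP signalling. It stood at 10.6 and 8.71 CPM in wild-type midbrain and at 15.2 and 14.5 CPM in wild-type forebrain, and at 7.23 and 10.2 CPM and 12.3 and 14.7 CPM in the hs654 and hs267-853 knockout libraries. The forebrain libraries were higher than all midbrain libraries. The log2 fold change was 0.61 ± 0.183 (SE, adjusted p = 0.0233, edgeR's quasi-likelihood test) in wild type and 0.65 ± 0.192 (adjusted p = 0.0225, edgeR's quasi-likelihood test) in the knockouts. The wild-type call was lost without wild-type midbrain replicate 2, wild-type forebrain replicate 1 or wild-type forebrain replicate 2, with a log2 fold change of 0.48 to 0.76 over all libraries left out. The knockout call was lost without hs654 knockout midbrain replicate 1 or hs267-853 knockout forebrain replicate 2, with 0.39 to 0.90.

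Of the regulators, Msx1 and Msx2 encode related homeodomain repressors. Msx1 stood at 36.9 and 47.0 CPM in wild-type midbrain, 45.1 and 42.9 CPM in hs654 knockout midbrain, 128 and 106 CPM in wild-type forebrain, and 58.5 and 111 CPM in hs267-853 knockout forebrain. Forebrain libraries were above midbrain libraries throughout, and hs267-853 knockout forebrain replicate 1 was the lowest of the forebrain libraries. The log2 fold change was 1.49 ± 0.22 (SE, adjusted p = 0.000252, edgeR's quasi-likelihood test) in wild type and 0.93 ± 0.226 (adjusted p = 0.00712, edgeR's quasi-likelihood test) in the knockouts. The knockout call of Msx1 was lost without either hs654 knockout midbrain library, and the log2 fold change ran from 0.41 without hs267-853 knockout forebrain replicate 2 to 1.33 without replicate 1. The antisense transcript Msx1os overlaps Msx1 over 2188 bases and was itself at 76.5 CPM in forebrain and 30.6 CPM in midbrain, so reads of the 2 genes cannot be told apart without strand.

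Msx2 had 10.1 and 13.3 CPM in wild-type midbrain, 14.3 and 12.6 CPM in hs654 knockout midbrain, 43.3 and 27.8 CPM in wild-type forebrain, and 16.2 and 33.1 CPM in hs267-853 knockout forebrain. The forebrain libraries again lay above all midbrain libraries, with hs267-853 knockout forebrain replicate 1 nearest to them. Its log2 fold change was 1.62 ± 0.292 (SE, adjusted p = 0.00108, edgeR's quasi-likelihood test) in wild type and 0.86 ± 0.30 (adjusted p = 0.0465, edgeR's quasi-likelihood test) in the knockouts. The knockout call was lost in 10 of 16 alternatives, and the log2 fold change ran from 0.26 without hs267-853 knockout forebrain replicate 2 to 1.30 without replicate 1.

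Id1 and Id3 encode helix-loop-helix proteins without a DNA-binding region, and their tissue differences were small. Id1 stood at 29.7 and 31.8 CPM in wild-type midbrain, 28.9 and 29.7 CPM in hs654 knockout midbrain, 32.2 and 34.0 CPM in wild-type forebrain, and 29.7 and 33.7 CPM in hs267-853 knockout forebrain. The tissues were not separated in the knockout libraries, and the wild-type difference of 0.11 had a 95% interval of -0.12 to 0.33 (edgeR's quasi-likelihood test). Id3 stood at 136 and 139 CPM in wild-type midbrain, 136 and 130 CPM in hs654 knockout midbrain, 115 and 119 CPM in wild-type forebrain, and 119 and 121 CPM in hs267-853 knockout forebrain. Every midbrain library was above every forebrain library, by a small amount. The log2 fold change of Id3 was -0.23 ± 0.0611 (SE, adjusted p = 0.013, edgeR's quasi-likelihood test) in wild type, a call lost without wild-type midbrain replicate 2 or wild-type forebrain replicate 1, and -0.14 ± 0.0615 (adjusted p = 0.0986, edgeR's quasi-likelihood test) in the knockouts. The knockout difference of Id3 passed in 1 of 16 alternatives, the filter on a mean of at least 50 counts, at -0.18 (adjusted p = 0.0404, edgeR's quasi-likelihood test).

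Ttr, the choroid plexus carrier of thyroxine, had the largest tissue fold of the 10. It was counted 3 and 8 times in the wild-type midbrain libraries, 7 and 3 times in hs654 knockout midbrain, 98 and 25 times in wild-type forebrain, and 164 and 173 times in hs267-853 knockout forebrain. These counts were 0.190 and 0.639, 0.602 and 0.328, 6.65 and 1.93, and 9.31 and 11.3 CPM. Every forebrain library was higher than every midbrain library, and the wild-type forebrain libraries lay far apart from each other. The forebrain-to-midbrain ratio of counts, summed over a group and divided by its summed library sizes, was 11.45 in wild type (95% exact interval 6.18 to 23.5, counting error only) and 21.3 in the knockouts (11.4 to 44.8). The fitted log2 fold change was 3.44 ± 0.635 (SE, adjusted p = 0.00127, edgeR's quasi-likelihood test) in wild type, and 2.28 to 4.46 when 1 library was left out. In the knockouts it was 4.40 ± 0.605 (adjusted p = 0.00013, edgeR's quasi-likelihood test).

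**Figure D2:**
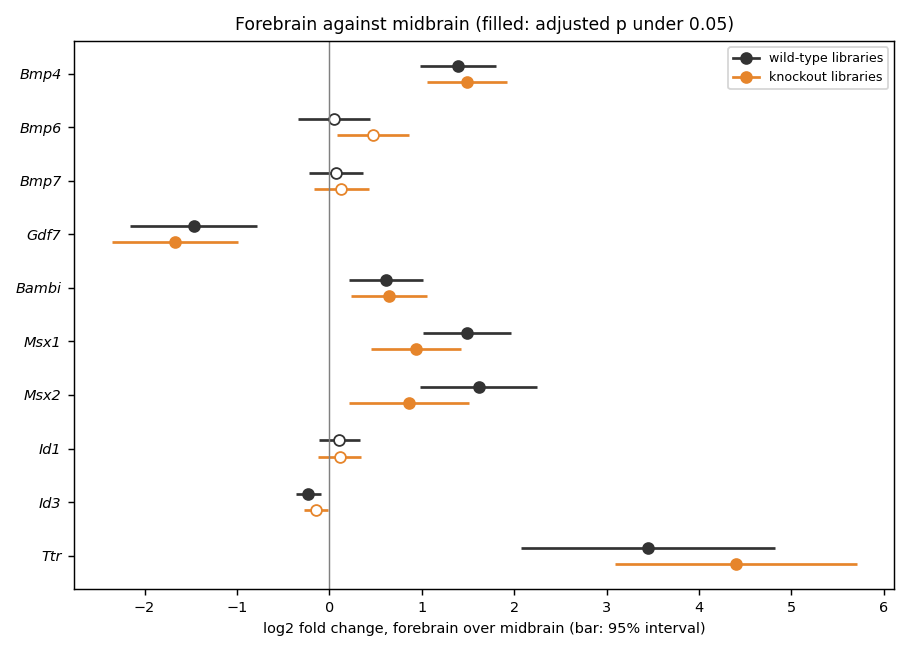
Log2 fold change of forebrain over midbrain for the 10 genes in the wild-type and the knockout libraries, with 95% intervals from edgeR's quasi-likelihood fit; filled points passed an adjusted p of 0.05. Bmp4, Gdf7, Bambi, Msx1, Msx2 and Ttr are filled in both, Id3 in wild type alone, and Bmp6, Bmp7 and Id1 in neither.

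The 5 members with every forebrain library above every midbrain library compare with 20.6% of tested genes with that separation, and the 2 members with the reverse compare with 20.3%. Whether the tissue difference itself differed between the wild-type and the knockout libraries was tested as an interaction, in which the deletion and the tissue change together. No member passed, against 0.0065% of genes called, and the smallest adjusted p was 0.996 (edgeR's quasi-likelihood test). For the wild-type minus the knockout difference, Msx2 had 0.76 ± 0.42 (SE, log2) and Msx1 had 0.55 ± 0.315, both with an adjusted p of 0.996 (edgeR's quasi-likelihood test). With no filter on low counts both passed, at an adjusted p of 0.0445 for Msx2 and 0.00306 for Msx1 (edgeR's quasi-likelihood test). That setting called 111 genes in all for the interaction. Without hs267-853 knockout forebrain replicate 2, which leaves a lone library in that group, the values were 1.08 for Msx1 and 1.36 for Msx2. Without replicate 1 they were 0.16 for Msx1 and 0.33 for Msx2, so their size depended on which knockout forebrain library was kept.

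Marker lists of tissues next to the brain, and of neural cells, were read in the same libraries. Their counts stand beside 29.6% of all tested genes called in wild type and 29.4% in the knockouts. The summed CPM of 9 surface ectoderm markers was 9.74 to 11.1 in wild-type midbrain, 10.5 to 12.5 in hs654 knockout midbrain, 48.1 to 74.1 in wild-type forebrain, 13.5 in hs267-853 knockout forebrain replicate 1 and 74.7 in replicate 2. All 4 forebrain sums stood above all midbrain sums, that of hs267-853 knockout forebrain replicate 1 only just. Cdh1 of that list went the other way in this library, at 1.19 CPM. It had 4.79 to 6.28 CPM in the midbrain libraries and 8.98 to 12.9 CPM in the other forebrain libraries. In wild type 8 of the 9 passed as higher in forebrain (median log2 fold change 4.09), and in the knockouts 5 of the 9 did (median 2.95). Krt8, an epithelial keratin on that list, had 17.8 and 10.7 CPM in wild-type forebrain, 3.12 and 18.2 CPM in hs267-853 knockout forebrain, and 1.20 to 1.84 CPM in the 4 midbrain libraries. Of the same list, Krt5 was at 0 in all 4 midbrain libraries, and Trp63 was at 0 in hs267-853 knockout forebrain replicate 1 and 6.35 CPM in replicate 2.

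The cranial mesenchyme list of 8 genes summed to 1392 to 1945 CPM in wild-type midbrain, 1768 to 1908 CPM in hs654 knockout midbrain, 1745 to 2193 CPM in wild-type forebrain and 1242 to 1920 CPM in hs267-853 knockout forebrain, with the 1242 in replicate 1. No gene of that list was at 0 in any library, and the collagen genes Col1a1, Col1a2 and Col3a1 made up most of each sum. The list did not go 1 way: in wild type 3 of the 8 passed, all higher in forebrain, with a median log2 fold change of 0.31, and in the knockouts 2 of the 8 passed as higher, with 4 of the 8 estimates above 0 and 4 below (median -0.076). Twist1, a mesenchymal regulator that was among the nearest profiles to Msx2, had 16.5 and 27.8 CPM in wild-type midbrain, 26.8 and 22.4 CPM in hs654 knockout midbrain, 93.3 and 64.9 CPM in wild-type forebrain, and 36.7 and 61.0 CPM in hs267-853 knockout forebrain. Twist1 was higher in all forebrain libraries. Being among the nearest profiles to Msx2 over these same libraries, it shares the pattern of Msx2 by selection. Among the forebrain libraries, every gene of the mesenchyme list was lowest in hs267-853 knockout forebrain replicate 1. Prrx1 of the same list was also higher in all forebrain libraries, at 23.7 to 33.8 CPM in midbrain and 72.1 to 126 CPM in forebrain. Over all 8 libraries, Pdgfra, Foxc1, Lum and the collagen genes overlapped between the tissues. Pdgfra did so only through hs267-853 knockout forebrain replicate 1, at 70.0 CPM. In wild type Pdgfra was at 50.4 and 86.4 CPM in midbrain and at 124 and 114 CPM in forebrain. The retinal pigment epithelium list of 7 genes summed to 4.36 to 4.95, 4.56 to 5.90, 15.5 to 18.9 and 10.8 to 14.7 CPM in the same order of groups, with Tyr at 0 in 6 of the 8 libraries. Liver and visceral endoderm markers, listed because Ttr is also made there, summed to 7.01 to 11.03 CPM over all groups, and Alb, Apoa4 and Fgb were at 0 in all 8 libraries. Neuronal markers ran the other way, with 7 of 7 lower in forebrain in wild type (median log2 fold change -0.90) and in the knockouts (median -0.99). Their sums were 2974 to 3127 CPM in wild-type midbrain, 3258 to 3364 CPM in hs654 knockout midbrain, 1549 to 1771 CPM in wild-type forebrain and 1405 to 1980 CPM in hs267-853 knockout forebrain. Of 7 neural progenitor markers, 3 passed as higher and 3 as lower in wild type, and 2 and 3 in the knockouts. The part of these cell types in the member results was not tested. Leaving out either hs267-853 knockout forebrain library leaves a lone library in that group. Without replicate 2, the log2 tissue difference in the knockouts was 1.18 for Bmp4, 0.41 for Msx1, 0.26 for Msx2 and 4.25 for Ttr. Without replicate 1 it was 1.76, 1.33, 1.30 and 4.54 in the same order. These replicates differed in several marker lists together, so the values cannot be tied to any 1 cell type.

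**Figure D3:**
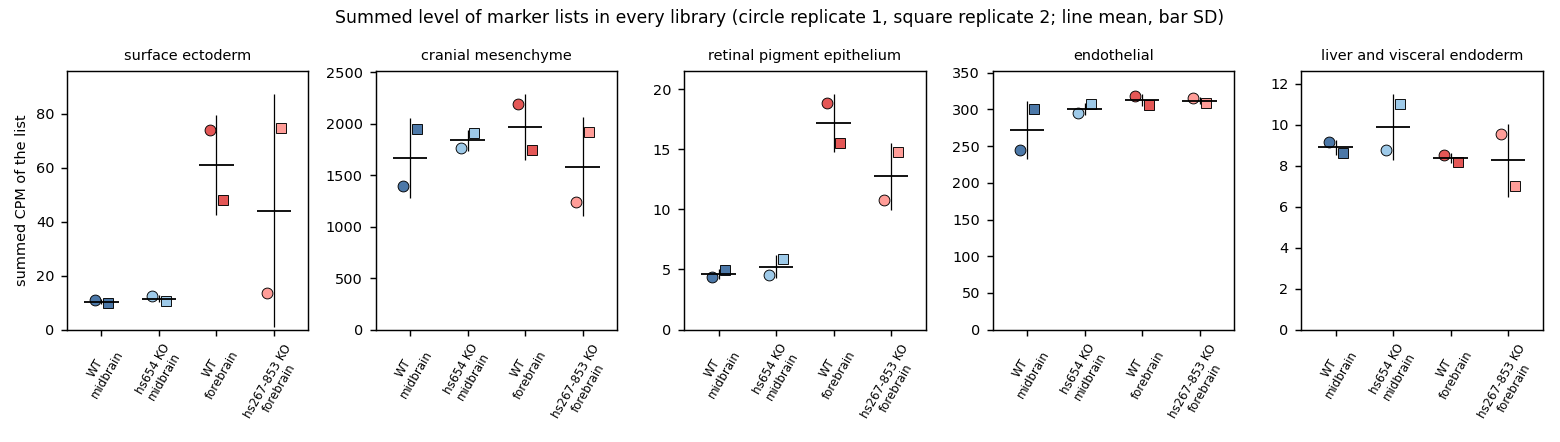
Summed CPM of 5 marker lists in the 8 libraries, linear axes starting at 0, with circles for replicate 1, squares for replicate 2, lines for the group mean and bars for the SD (n = 2; bars cut at 0). In hs267-853 knockout forebrain the surface ectoderm sum was 13.5 CPM in replicate 1 and 74.7 CPM in replicate 2.

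The knockouts were then compared with wild type within each tissue. In the midbrain, no member passed in hs654 knockout against wild type, against 0% of genes called. Log2 fold changes ran from -0.20 for Bmp4 to 0.29 for Ttr, and the smallest adjusted p was 0.992 (edgeR's quasi-likelihood test). No member had an unadjusted p under 0.05, beside 3.96% of genes. Only Bmp4 had groups that did not overlap, the wild-type libraries (8.73 and 8.31 CPM) lying above the knockout ones (6.88 and 8.08 CPM), beside 36.7% of genes with such separation. The 95% interval of that difference was -0.67 to 0.28 on the log2 scale.

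In the forebrain, no member passed in hs267-853 knockout against wild type, against 0.013% of genes called. At an unadjusted p under 0.05 there were 3 members, Ttr, Bmp6 and Msx1, beside 4.78% of genes. The groups of Ttr and Bmp6 did not overlap, being higher in both knockout libraries, beside 31.1% of genes with such separation. Ttr had a log2 fold change of 1.24 ± 0.413 (SE, adjusted p = 0.968), its wild-type libraries being at 6.65 and 1.93 CPM and its knockout libraries at 9.31 and 11.3 CPM, by edgeR's quasi-likelihood test. Bmp6 had 0.44 ± 0.173 (SE, adjusted p = 0.984), with 9.30 and 11.45 CPM against 12.4 and 15.8 CPM, by the same edgeR test. With no filter on low counts, 3 members passed in this comparison at nearly the same folds: Ttr (adjusted p = 0.000584), Msx1 (adjusted p = 8.5e-06) and Msx2 (adjusted p = 0.00846), by edgeR's quasi-likelihood test. That setting called 161 genes in all, against 2 with the filter, and why it called more was not tested. For the wild-type tissue difference of Msx1 it gave an adjusted p of 3.7e-61, against 0.000252 with the filter (edgeR's quasi-likelihood test). The 3 calls are therefore not taken as knockout effects.

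Msx1 had a log2 fold change of -0.48 ± 0.208 (SE, adjusted p = 0.984) and Msx2 one of -0.54 ± 0.269 (SE, adjusted p = 0.984), by edgeR's quasi-likelihood test. The knockout libraries differed from each other by more than the wild-type ones for both genes: replicate 2, at 111 and 33.1 CPM, lay inside the wild-type range of 106 to 128 and 27.8 to 43.3 CPM, and replicate 1, at 58.5 and 16.2 CPM, below it. Left with replicate 2 alone, the log2 differences were -0.083 for Msx1 and -0.11 for Msx2. With replicate 1 alone they were -1.001 and -1.14. Each of these fits keeps a lone knockout library, so the disagreement between the knockout libraries drops out of the test. No call is drawn from them. Replicate 1 was the lowest of the 4 forebrain libraries for 7 of the 10 members (Bmp4, Bmp7, Gdf7, Bambi, Msx1, Msx2 and Id1) and the highest for none, and replicate 2 was the highest for 6. The share of all tested genes at these extremes was not computed. Over all genes, the replicates of this group also disagreed most, with a chi-square per degree of freedom of 7.74, against 3.75 to 5.56 in the other groups. The counts of members are therefore not read as particular to them. Replicate 1 also had the lowest sums of the surface ectoderm, cranial mesenchyme and pigment epithelium lists among the 4 forebrain libraries. It had the highest sums of the neuronal list (1980 CPM, against 1405 to 1771 CPM in the other forebrain libraries) and of the neural progenitor list (3685 CPM, against 3227 to 3288 CPM). The part of these cell types in the member values was not tested.

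**Figure D4:**
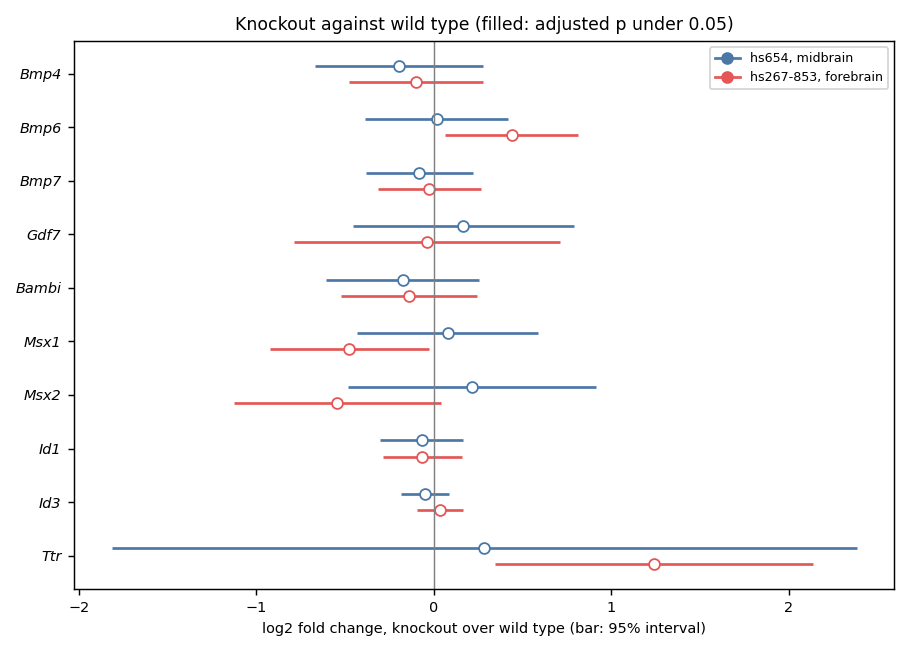
Log2 fold change of knockout over wild type for the 10 genes, for hs654 in midbrain and hs267-853 in forebrain, with 95% intervals from edgeR's quasi-likelihood fit; filled points would mark an adjusted p under 0.05. No point is filled, and the intervals of Ttr, Bmp6 and Msx1 in forebrain leave out 0.

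The tissue contrast was also read in 70 other genes of the pathway and of the dorsal midline, of which 59 were tested. In wild type 35 of the 59 passed, 22 higher and 13 lower in forebrain, with a median log2 fold change of 0.17, beside 29.6% of all tested genes called and a median of 0.0012. In the knockouts 40 passed, 25 higher and 15 lower, beside 29.4% of all tested genes called, 14.6% higher and 14.8% lower. In the comparisons of knockout with wild type none of the 59 passed, by edgeR's quasi-likelihood test. At an unadjusted p under 0.05 there were 2 of the 59 in hs654, beside 3.96% of all tested genes, and 9 of the 59 in hs267-853, beside 4.78%.

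The counts per list below stand beside 29.6% of all tested genes called in wild type, and in such short lists several lie near that share. Further ligands of the family were tested in 5 of 9 cases and 2 passed. Gdf6, a roof plate and eye ligand, had a log2 fold change of 4.79 ± 0.788 (SE, adjusted p = 0.000546, edgeR's quasi-likelihood test), from 0.160 ± 0.226 CPM (SD) in wild-type midbrain to 4.20 ± 0.685 CPM in wild-type forebrain. Gdf5, a joint and limb ligand, had 2.49 ± 0.578, from 0.373 ± 0.188 CPM in wild-type midbrain to 2.22 ± 0.257 CPM in wild-type forebrain (mean ± SD). Both ligands stood at or near the floor of 3 counts in midbrain, so the size of these folds is uncertain. Bmp2, Bmp3 and Bmp5 did not pass. Of 8 receptors and co-receptors 4 passed: the type I receptors Bmpr1b (1.29 ± 0.156) and Bmpr1a (0.42 ± 0.0727) were higher in forebrain, and the glycolipid-anchored co-receptors Rgmb (-1.18 ± 0.0892) and Rgma (-1.03 ± 0.0684) were lower. Bmpr1b rose from 10.9 ± 0.0888 CPM in wild-type midbrain to 26.6 ± 1.75 CPM in wild-type forebrain (mean ± SD, n = 2). Of the 4 Smad genes, Smad5 and the shared partner Smad4 passed with small changes of 0.18 ± 0.0617 and 0.17 ± 0.0566.

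Extracellular modulators split evenly, with 10 of 13 passing, 5 in each direction. The secreted antagonists Sostdc1 (3.35 ± 0.603) and Grem1 (2.94 ± 0.666) were higher in forebrain, and the activin and BMP binder Fst (-1.70 ± 0.174) was lower. Sostdc1 was at 0.509 ± 0.183 CPM in wild-type midbrain and 5.14 ± 2.23 CPM in wild-type forebrain (mean ± SD). Grem1 was at 0.263 ± 0.193 and 1.97 ± 0.38 CPM. Their midbrain levels were near the floor of 3 counts, so the size of these 2 folds is uncertain. Fst was at 31.6 ± 7.84 CPM in wild-type midbrain and 9.75 ± 1.09 CPM in wild-type forebrain (mean ± SD). Other targets of the pathway passed in 4 of 9 cases. Id4, another Id gene, was higher in forebrain by 2.27 ± 0.0569, from 112 ± 2.62 to 537 ± 3.31 CPM (mean ± SD), and Atoh8 by 0.89 ± 0.185, whereas Id2 was lower at -0.71 ± 0.119. The Id genes thus did not share a direction: of the 4, Id4 was higher, Id2 and Id3 were lower, and Id1 did not pass.

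Roof plate and cortical hem genes passed in 8 of 12 cases. Wnt8b, a Wnt ligand of the cortical hem, was higher in forebrain by 2.49 ± 0.251 and the Wnt agonist Rspo1 by 2.05 ± 0.167, and Wnt1, a Wnt ligand of the midbrain, was lower at -4.87 ± 0.267, as was the roof plate regulator Lmx1a at -1.41 ± 0.164. Wnt8b stood at 20.5 ± 11.9 CPM in wild-type midbrain and 113 ± 15.8 CPM in wild-type forebrain (mean ± SD), and Wnt1 at 16.1 ± 1 and 0.552 ± 0.205 CPM. Choroid plexus genes passed in 5 of 8 cases, in both directions. Clic6 was higher in forebrain by 2.17 ± 0.229 and the cilia regulator Foxj1 by 0.48 ± 0.155, whereas the bicarbonate transporter Slc4a5 was lower at -3.37 ± 0.467 and the head regulator Otx2 at -2.36 ± 0.11. Otx2 is also a midbrain gene and stood at 266 ± 18.6 CPM in wild-type midbrain and 52.0 ± 10.5 CPM in wild-type forebrain (mean ± SD). All 22 list genes given here with a fold passed in the same direction between the knockout tissues (edgeR's quasi-likelihood test). They were picked as the largest calls in wild type, so a repeat was likely beforehand. The share of all wild-type calls that repeat was not computed.

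Genes with the most similar profiles over the 8 libraries were sought for the 6 members with a log2 range over 1, among 10607 or 10608 tested genes of at least 10 CPM, by the smallest root mean square difference of centred log2 CPM. Msx1 and Msx2 were among each other's 3 nearest, at 0.111 log2 units. Ednra, the endothelin receptor of cranial mesenchyme, was nearest to Msx1 at 0.11 and second to Msx2 at 0.155. Msx1os at 0.111 and Twist1 at 0.169 completed these sets. For Bmp4 they were Gas1 at 0.135, Mpped2 at 0.187 and Gsta4 at 0.188. Those of Gdf7 included Prickle2 at 0.143 and Thbs2 at 0.177. Those of Bambi were Prrt2 at 0.12, Cln6 at 0.133 and Ulk4 at 0.14. The nearest to Ttr lay further off, Shisa2 at 0.69, Rbm20 at 0.698 and Emx2 at 0.702. Ttr had 3 to 8 counts in the midbrain libraries, so counting error adds to its distances. Its own mean was 3.87 CPM, and genes of such a level were not among the candidates. Whether its profile is distinct was not tested.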

How the data were processed

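Gene counts of 8 libraries were used as deposited. Per the submitters' processing notes the authors used STAR, HTSeq and DESeq2 with mm10; versions, annotation and the strand setting are not given in the sources used here. The count files end in 5 rows that name no gene, which were left out; genes took 40.7 to 44.1% of the counts with no-feature and ambiguous reads included. In R 4.3.3, edgeR 4.0.16 filtered genes (filterByExpr), scaled libraries (TMM) and fitted 1 quasi-likelihood model to all 8 libraries, with 15383 genes tested and adjusted p under 0.05 called. CPM use a prior count of 2 on the log2 scale. As a check of the code, the fit was also run on simulated counts with changes put into wild-type forebrain alone. No result here rests on that run. The members and lists were chosen with earlier results of these data known. Named genes are the members, the 2 largest rises and 2 largest falls per list in wild type, and the 3 nearest profiles; 2 genes under this rule are not reported here. Alternatives were 2 other scalings, filters, a minimum change of 1.5-fold, DESeq2 1.42.0, limma-voom, a replicate block, only the groups compared, and leaving out each library. Counting error alone gives a floor of 3 counts, 0.17 to 0.328 CPM. No capture Hi-C sample (21 in the series) was used.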

Additional observations from a re-analysis of the deposited data

How the results depend on the processing

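Depth limits Ttr in the midbrain, where 3 to 8 counts a library stand near the floor of 3 counts. With 2 libraries a group, leaving 1 out leaves a lone library that is assumed to vary like the rest, and an exact permutation test of 2 against 2 could not go below p = 0.333. Bmp4, Gdf7 and Ttr kept their call and direction in both tissue comparisons in all 16 alternatives each, and Msx1 and Msx2 did so in wild type. With the replicate block the tissue comparisons called 7 members in wild type and 5 in the knockouts. Of the other pathway genes they called 36 and 39. The labels do not say whether equal replicate numbers mark a shared litter or day. Same-number correlations of -0.025 to 0.067 cannot settle that.

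In the knockout tissue comparison 3 members passed a minimum change of 1.5-fold. For hs654, 22 genes passed with no filter on low counts and 1 with only the groups compared. For hs267-853, 161 genes passed with no filter, including 3 members, 13 with DESeq2, 1 with limma-voom and 1 with only the groups compared. For the interaction, 111 genes passed with no filter, including 2 members, and 4 with DESeq2. The cause was not tested. The interaction of Id1 turned positive at 0.011 with RLE scaling, 0.0091 with no filter, 0.015 at a mean of at least 50 counts, 0.010 with DESeq2 and 0.0046 with limma-voom.

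When each library was left out in turn, 2816 to 5285 genes passed in the wild-type tissue comparison and 2810 to 4358 in the knockout one, with 5 to 7 and 3 to 7 members. For hs654, 0 to 8 genes passed; for hs267-853, 1 to 209 genes and 0 to 2 members; for the interaction, 0 to 64 genes and 0 to 1 member. The highest values for hs267-853 and for the interaction came without hs267-853 knockout forebrain replicate 2, and the lowest for the members of the knockout tissue comparison without hs654 knockout midbrain replicate 1. Log2 differences that changed sign, none of them called, ranged as follows. In the wild-type tissue comparison Bmp6 ran from -0.10 to 0.20 and Bmp7 from -0.033 to 0.18, and in the knockout one Bmp7 from -0.097 to 0.34. For hs654 Bmp6 ran from -0.077 to 0.13, Bmp7 from -0.18 to 0.020, Bambi from -0.43 to 0.077, Msx1 from -0.089 to 0.26 and Ttr from -0.40 to 1.30. For hs267-853 Bmp4 ran from -0.42 to 0.17, Bmp7 from -0.25 to 0.18, Gdf7 from -0.54 to 0.36 and Id1 from -0.16 to 0.028. For the interaction Bmp4 ran from -0.37 to 0.22, Bmp7 from -0.26 to 0.17, Gdf7 from -0.19 to 0.71, Bambi from -0.29 to 0.23, Id1 from -0.095 to 0.090 and Ttr from -2.12 to 0.055.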
